A study of Mus musculus with 2 samples.

Results

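Reg4-high cells of the mouse colon were described in a single-cell RNA library of the wild-type organ. They were taken as the cells with a Reg4 value of at least 10, an Epcam value of at least 5 and a Chgb value below 20. The rule found 319 of the 7495 cells of the library, or 4.26% (95% exact binomial interval 3.81 to 4.74). These were 10.6% of the 3008 cells with Epcam of at least 5 (9.53 to 11.8). The library mixed equal numbers of sorted epithelial cells (EpCAM+CD45-) and of cells with neither surface marker, so without most leukocytes (EpCAM-CD45-), from the colons of 3 female C57BL/6 mice aged 8 to 12 weeks. The share in the library therefore depends on the mixing. The mice were pooled with no map from cells to mice, so the library is 1 sample. Differences between classes of cells therefore carry no test and no spread over mice, and every interval covers counting error only. The other library of the series, sorted for GFP from the mesenchyme of Pdgfra-H2B-eGFP reporter animals, shared 1 cell barcode with it and entered no comparison.

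Values are corrected counts, which are reads counted per gene as unique molecules and then adjusted by the authors to a common depth. A value above 0 therefore need not be a molecule of that cell. Intervals of ratios treat these values as counted molecules. The Reg4-high cells were set beside 2689 other cells with Epcam of at least 5 (other Epcam cells). They were also set beside 360 goblet cells with Muc2 of at least 100, Reg4 below 10 and Chgb below 20 (Muc2-high goblet cells), which are also among the 2689. Cells with Col1a1 of at least 5 and no Epcam, 1969 in number, served as the background for genes that mesenchymal cells should lack. Per cell, a median of 3180 genes was above 0 in Reg4-high cells, 3139 in other Epcam cells, 3334.5 in goblet cells and 2797 in the Col1a1-high cells. The members were chosen by their own Reg4, Epcam and Chgb values, and the goblet cells by Muc2, Reg4 and Chgb. All levels are descriptions, since the genes of 1 cell vary together with the gene that selected it.

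Deep crypt secretory cells lie between the stem cells at the base of colon crypts and are known as the colon's counterpart of Paneth cells. They present the Notch ligands Dll1 and Dll4 on their surface. Notch ligands bind Notch receptors on neighbouring cells, which keeps those neighbours out of the secretory lineage. Atoh1 is the transcription factor that starts secretory differentiation, Kit is the receptor of stem cell factor, and Reg4 encodes a secreted lectin. Goblet cells, which share the Atoh1 lineage, make the gel-forming mucin Muc2.

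The promoters of 4 genes are shown because Reg4 chose the cells, Dll1 is the Notch ligand with the larger difference from goblet cells, and Sval1 and Gal3st2, both at least 2-fold higher in both comparisons, had the most matches among the promoters searched by name. They were picked for those matches. Each is the RefSeq promoter on GRCm38.p6, 250 bases before and 50 after the start, printed 5′ to 3′ on the strand of the gene. Capitals mark matches to the E-box letters CAGCTG or CAGATG (either strand, so CATCTG is included), 2 E-box forms to which bHLH factors such as Atoh1 can bind. A match is a run of letters and not a binding site.
Reg4, chr3:98221906-98222205, plus strand: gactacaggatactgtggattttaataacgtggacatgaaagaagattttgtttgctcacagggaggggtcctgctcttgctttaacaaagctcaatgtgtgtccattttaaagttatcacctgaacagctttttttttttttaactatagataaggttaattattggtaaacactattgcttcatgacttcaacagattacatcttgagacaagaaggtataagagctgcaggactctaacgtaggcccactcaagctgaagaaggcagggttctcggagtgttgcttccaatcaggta
Dll1, upstream start, chr17:15376883-15377182, minus strand: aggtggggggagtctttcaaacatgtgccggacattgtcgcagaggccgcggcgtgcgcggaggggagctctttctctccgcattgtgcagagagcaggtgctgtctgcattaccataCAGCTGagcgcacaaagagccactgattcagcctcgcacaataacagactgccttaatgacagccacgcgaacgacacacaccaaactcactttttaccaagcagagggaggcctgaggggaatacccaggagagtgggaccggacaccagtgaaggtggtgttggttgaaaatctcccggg
Sval1, chr6:41951378-41951677, plus strand: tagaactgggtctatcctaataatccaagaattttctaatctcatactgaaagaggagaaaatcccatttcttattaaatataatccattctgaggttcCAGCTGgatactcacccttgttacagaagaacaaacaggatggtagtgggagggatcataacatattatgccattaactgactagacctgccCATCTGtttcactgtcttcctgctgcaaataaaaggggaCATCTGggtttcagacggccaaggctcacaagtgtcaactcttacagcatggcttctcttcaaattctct
Gal3st2, chr1:93861094-93861393, plus strand: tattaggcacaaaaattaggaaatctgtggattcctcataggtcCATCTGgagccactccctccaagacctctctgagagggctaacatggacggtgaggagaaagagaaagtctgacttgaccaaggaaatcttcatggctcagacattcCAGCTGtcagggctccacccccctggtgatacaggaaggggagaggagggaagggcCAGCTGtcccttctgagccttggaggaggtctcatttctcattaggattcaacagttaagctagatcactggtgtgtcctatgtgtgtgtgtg

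The Reg4 promoter held no match, the upstream Dll1 promoter 1, and those of Sval1 and Gal3st2 3 each. The other Dll1 promoter held 0, as did the promoters of Dll4, Kit, Atoh1, Spdef, Gfi1, Gal3st2c, Cma1, Clec2h, Rprm and Pdlim4. Those of Mptx1 and Chodl held 1 each, and Cldn14 had 1 in some of its promoters. Such letters stood in 30.6% of all 300-base promoters and in 26.5% of the promoters of genes in the table. Among the genes at least 2-fold higher in Reg4-high cells in both comparisons, 75 had a promoter in the RefSeq table. Of their 96 promoters 35 held a match, or 36.5%.

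The members ranged from 10 to 548 in Reg4, with a median of 41. Reg4 was above 0 in 8.59% of other Epcam cells, in 20.6% of goblet cells and in 4.22% of the Col1a1-high cells. Just inside the threshold lay 62 members with Reg4 of 10 to 19. Just outside it lay 53 Epcam cells with Reg4 of 5 to 9 and Chgb below 20. Another 16 Epcam cells passed the Reg4 threshold with Chgb of 20 or more, and 3 cells passed it below Epcam of 5. The members held 89.7% of all Reg4 counted in Epcam cells.

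**Figure D1:**
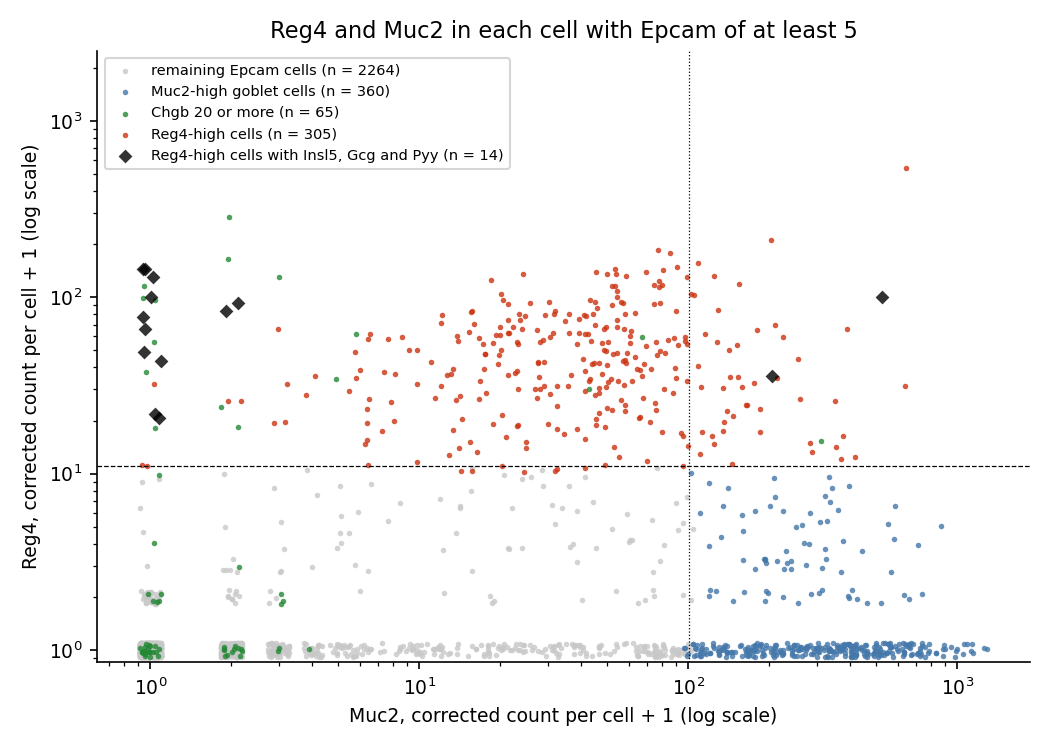
Each point is 1 of the 3008 cells with Epcam of at least 5, with its Muc2 value (x axis) and Reg4 value (y axis), both as corrected count plus 1 on log scales with slight jitter. The dashed line marks the Reg4 threshold and the dotted line the Muc2 threshold. Most Reg4-high cells carry Muc2 below 100, and 12 of the 14 black diamonds, the members with Insl5, Gcg and Pyy, have Muc2 of at most 1.

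The label of deep crypt secretory cells was checked first against cells of the enteroendocrine lineage, and 14 members (4.39%, exact interval 2.42 to 7.25) went against it. In these 14 the summed values of Insl5, Gcg and Pyy, the peptide hormone genes of colonic L cells, ran from 616 to 6988 with a median of 2730. In the other 305 members the sum reached at most 10, and 267 of them were at 0. The 14 were set apart by this sum, so its difference between the groups is given by the split, and only the gap between 10 and 616 is not. None of the 14 had Dll1 or Dll4 above 0. Best2 was above 0 in 1 of them, and Kit and Atoh1 in 2 each.

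The 14 cells also carried the endocrine transcription factor Pax6 (mean 2.00), which was at 0 in all 305 others. The secretory granule gene Pcsk1n had a mean of 30.2 in them against 0.00984 in the others. Their Chgb reached at most 11, which is how they passed the rule. The 65 Epcam cells with Chgb of 20 or more differed from them in Tph1, the enzyme of serotonin synthesis. Tph1 had a mean of 42.2 there and was at 0 in all 14. Other endocrine genes were present in both, such as Pcsk1n (mean 36.9 in the 65) and Neurod1 (6.58 in the 65 and 3.07 in the 14). Of the 24 Epcam cells with a hormone sum of at least 20, 14 were members, 9 had Reg4 below 10 and 1 had Chgb of 20 or more. Muc2 was at least 100 in 2 of the 14, with a highest value of 506. The hormone threshold of 20 was set after these values were seen, and results that rest on the 14 are given with and without them.

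**Figure D2:**
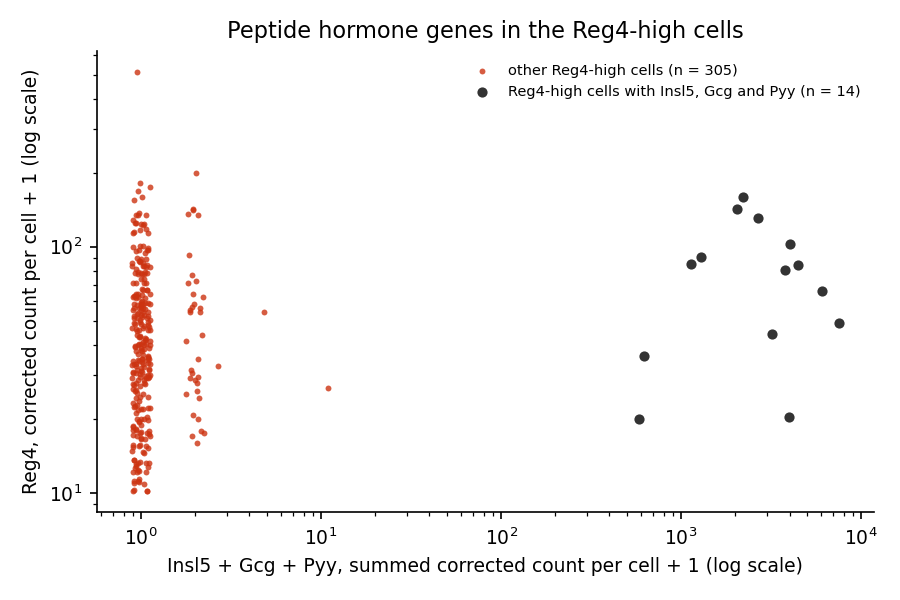
Summed corrected counts of Insl5, Gcg and Pyy (x axis) against Reg4 (y axis) in each of the 319 Reg4-high cells, both plus 1 on log scales with slight jitter. The 14 black points lie between 616 and 6988, and the 305 red points at 10 or below.

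The Notch ligands Dll1 and Dll4 were both higher in Reg4-high cells than in either comparison class. Dll1 averaged 0.793 per cell (lowest 0, median 1, highest 5), against 0.115 in other Epcam cells and 0.128 in goblet cells. The ratio of means was 6.90-fold (exact counting interval 5.82 to 8.18) over other Epcam cells and 6.21-fold (4.52 to 8.69) over goblet cells. Dll1 was above 0 in 50.5% of members, 8.66% of other Epcam cells, 11.7% of goblet cells and 9.35% of Col1a1-high cells. With each cell thinned to 6000 counts the shares were 35.1%, 6.29%, 5.28% and 6.25%. The values of single cells overlapped between the classes.

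Dll4 averaged 0.671 (lowest 0, median 0, highest 5) in members, 0.0997 in other Epcam cells and 0.267 in goblet cells. That was 6.73-fold (5.60 to 8.09) over other Epcam cells and 2.52-fold (1.97 to 3.23) over goblet cells. Dll4 was above 0 in 48.9% of members, 23.1% of goblet cells and 1.42% of Col1a1-high cells (35.4%, 12.2% and 0.914% after thinning).

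Both ligands were above 0 in 109 members, or 34.2% (29.0 to 39.7), and in 3.33% of goblet cells and 2.08% of other Epcam cells. Independent detection of the 2 genes would give 24.7%, 2.69% and 0.725%, so much of the share in members follows from how often each ligand was above 0. After thinning, both were above 0 in 16.6%, 0.833% and 0.893%. Of the 165 Epcam cells with both ligands, 66.1% were Reg4-high. Among the 110 Lgr5-positive cells (Lgr5 of at least 2) 15 had either ligand (13.6%) and 0 had both. Independent detection would give both in 0.446% of these cells, so the number of cells is too small to read anything from the 0. Members held 45.0% of the Dll1 and 44.4% of the Dll4 counted in Epcam cells, so more than 50 percent of each lay outside them. Dll1 was above 0 in 233 of 2689 other Epcam cells and in 184 of 1969 Col1a1-high cells. Dll4 was above 0 in 225 and 28 of these cells. The part of background in the counts outside the members was not tested.

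Atoh1 averaged 2.56 (lowest 0, median 1, highest 16) in members, 0.408 in other Epcam cells and 2.03 in goblet cells. It stood 6.28-fold (5.73 to 6.88) over other Epcam cells but only 1.26-fold (1.14 to 1.40) over goblet cells. Kit averaged 1.36 (lowest 0, median 1, highest 6) in members against 0.358 and 1.71. Kit was thus 3.80-fold (3.39 to 4.26) over other Epcam cells and 0.798-fold (0.704 to 0.904) of goblet cells. Kit was above 0 in 233 of the 319 members, 270 of the 360 goblet cells and 0.254% of Col1a1-high cells (55.5%, 60.8% and 0.203% after thinning). Of the 4 markers in the label besides Reg4, Dll1 and Dll4 were at least 2-fold higher than in goblet cells, and Atoh1 and Kit were not. Of the other Epcam cells 1361 had over 10% mitochondrial counts (51 members did), and without all such cells the log2 ratio over other Epcam cells was 1.26 in place of 1.93 for Kit and 1.92 in place of 2.65 for Atoh1. With goblet and enteroendocrine cells taken out of the other Epcam cells it was 3.30 for Kit and 4.02 for Atoh1.

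**Figure D3:**
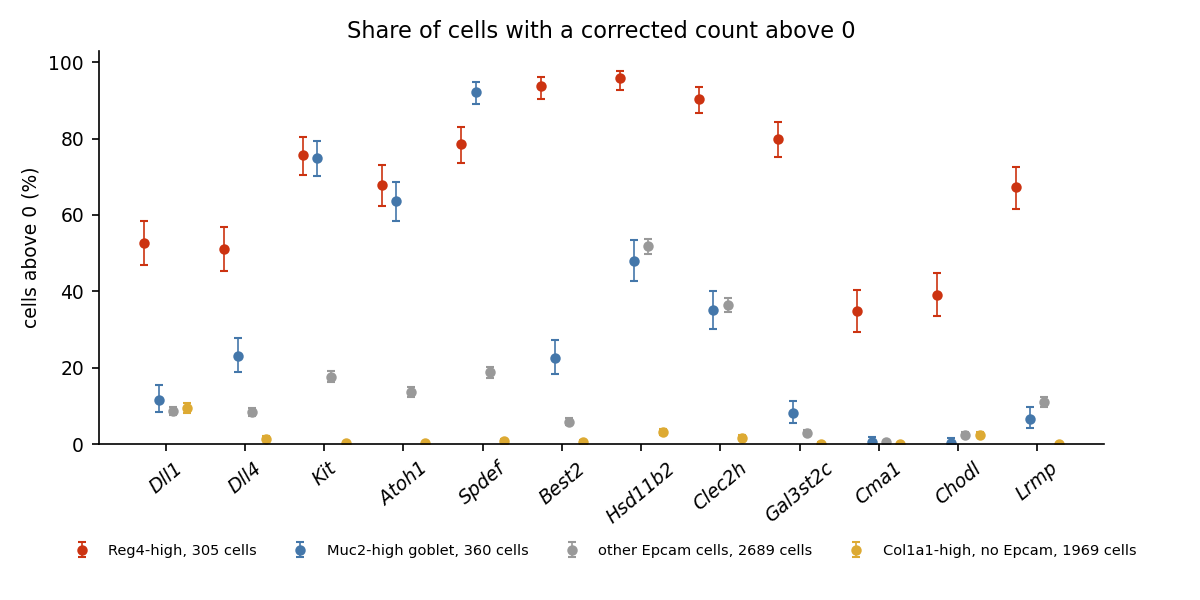
Share of cells with a corrected count above 0 (y axis, percent) for 12 genes (x axis) in 305 Reg4-high cells without the 14 hormone-positive ones, 360 Muc2-high goblet cells, 2689 other Epcam cells and 1969 Col1a1-high cells; bars are exact 95% binomial intervals that cover counting error only. Kit and Atoh1 lie together in Reg4-high and goblet cells, while Dll1, Best2, Gal3st2c and Cma1 lie apart.

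Most other genes of Notch signalling were not higher in Reg4-high cells. The Notch ligand list held 6 genes, of which 4 could be compared; Dll1 and Dll4 were higher in both comparisons and Dlk1 lower in both. Dlk1, a non-canonical ligand, averaged 0.0125 in members and 0.678 in goblet cells. Notch1, the receptor, averaged 0.0596 in members, 0.238 in other Epcam cells and 0.773 in Lgr5-positive cells. Over goblet cells Notch1 was 2.68-fold (1.12 to 7.08), which rests on 19 counts in members and 8 in goblet cells. Hes1, a direct target of the activated receptor, averaged 0.784 in members, 1.60 in other Epcam cells and 3.73 in Lgr5-positive cells. In goblet cells Hes1 averaged 0.975. Of 13 genes tested that process ligands or receptors, 1 was at least 2-fold higher than in other Epcam cells, against 3.61% of all genes. This was Lfng, the fringe glycosyltransferase, with 0.455 against 0.154. Over goblet cells Lfng was 1.36-fold (1.06 to 1.75).

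Across all genes, a gene was compared where its mean reached 0.1 in either class, and counted as higher or lower at a 2-fold ratio of means with 0.05 added to each. Over other Epcam cells 347 of 9608 genes were higher (3.61%) and 607 were lower (6.32%). Over goblet cells 331 of 9437 genes were higher (3.51%) and 513 were lower (5.44%). These counts have no replicate check and depend on the rule: with 0.5 added they were 89 and 129, and 50 and 97, and with a mean of at least 1 they were 126 and 150, and 66 and 190. With goblet and enteroendocrine cells taken out of the other Epcam cells, 598 were higher. Without the 14 hormone-positive cells the counts by the first rule were 331 and 647, and 285 and 539. Higher in both comparisons were 100 genes, which is 28.8% of the first list and 30.2% of the second. Without the 14 there were 83, of which 76 were among the 100. The median log2 ratio of all genes was -0.02 over other Epcam cells. Counts within the gene lists below are to be read beside the shares of all genes given here.

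The genes that stood out in both comparisons covered a secreted pentraxin, an ion channel, a steroid enzyme, sulfotransferases and a protease. Mptx1, a pentraxin known from Paneth cells, averaged 638 (lowest 0, median 435, highest 2923) in members. It averaged 16.5 in other Epcam cells and 81.8 in goblet cells, ratios of 38.6 and 7.81. Mptx1 was above 0 in 42.7% of Col1a1-high cells at a mean of 0.632, so a single count of Mptx1 in a cell is no sign of its expression.

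Best2, a calcium-activated bicarbonate channel, averaged 6.50 (lowest 0, median 6, highest 29) in members, 0.161 in other Epcam cells and 0.531 in goblet cells. It was above 0 in 287 of the 319 members, 22.5% of goblet cells and 0.609% of Col1a1-high cells (86.5%, 17.8% and 0.457% after thinning). Members held 82.8% of its counts in Epcam cells. Hsd11b2, the enzyme that inactivates glucocorticoids, averaged 19.6 (lowest 0, median 18, highest 57) against 2.56 in other Epcam cells and 2.54 in goblet cells. Sval1, a seminal vesicle antigen-like secreted protein, averaged 107 against 4.60 and 23.7.

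Gal3st2c, Gal3st2b and Gal3st2, which lie next to each other on chromosome 1 and encode galactose sulfotransferases, averaged 2.16, 0.743 and 0.702 in members. In goblet cells they averaged 0.153, 0.0806 and 0.0583. How alike these genes are in sequence was not measured, so how well their reads could be told apart is uncertain. Cma1, a chymase of mast cells, averaged 0.696 in members (highest 14) and was above 0 in 33.2% of them. It was above 0 in 0.558% of other Epcam cells, in 0.556% of goblet cells and in 0.0508% of Col1a1-high cells (23.8%, 0.446%, 0.556% and 0.0508% after thinning). Its ratio over goblet cells rests on 2 counts there and was 125-fold with a counting interval of 34.3 to 1041. Of the 8 mast cell genes, a list made after the values were seen, 4 were in the table and Cma1 alone reached the mean needed for comparison.

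Chodl, a membrane lectin, averaged 0.536 in members and 0.0271 in other Epcam cells, with 1 count in all goblet cells. Itpr1, a calcium release channel, averaged 1.43 against 0.129 and 0.200. Clec2h averaged 8.60 against 1.36 and 1.34, and Lrmp 1.16 against 0.162 and 0.0694. Serpina9, a serine protease inhibitor, averaged 0.524 against 0.0234 and 0.0583. Cldn14, a tight junction protein, averaged 1.17 with the 14 hormone-positive cells and 0.711 without them, since its mean in the 14 was 11.1. Rprm was likewise 0.661 with and 0.492 without them. Ttr, the thyroxine carrier, averaged 4.08 against 0.963 and 0.333. In the 65 Epcam cells with Chgb of 20 or more, Ttr averaged 6.49, Rprm 0.831, Cldn14 0.754 and Itpr1 0.954. Ttr, Rprm and Cldn14 were thus not particular to Reg4-high cells, and Itpr1 also averaged 0.413 in Col1a1-high cells. In the same 65 cells Chodl and Serpina9 were at 0, Clec2h averaged 0.277 and Lrmp 0.0308.

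**Figure D4:**
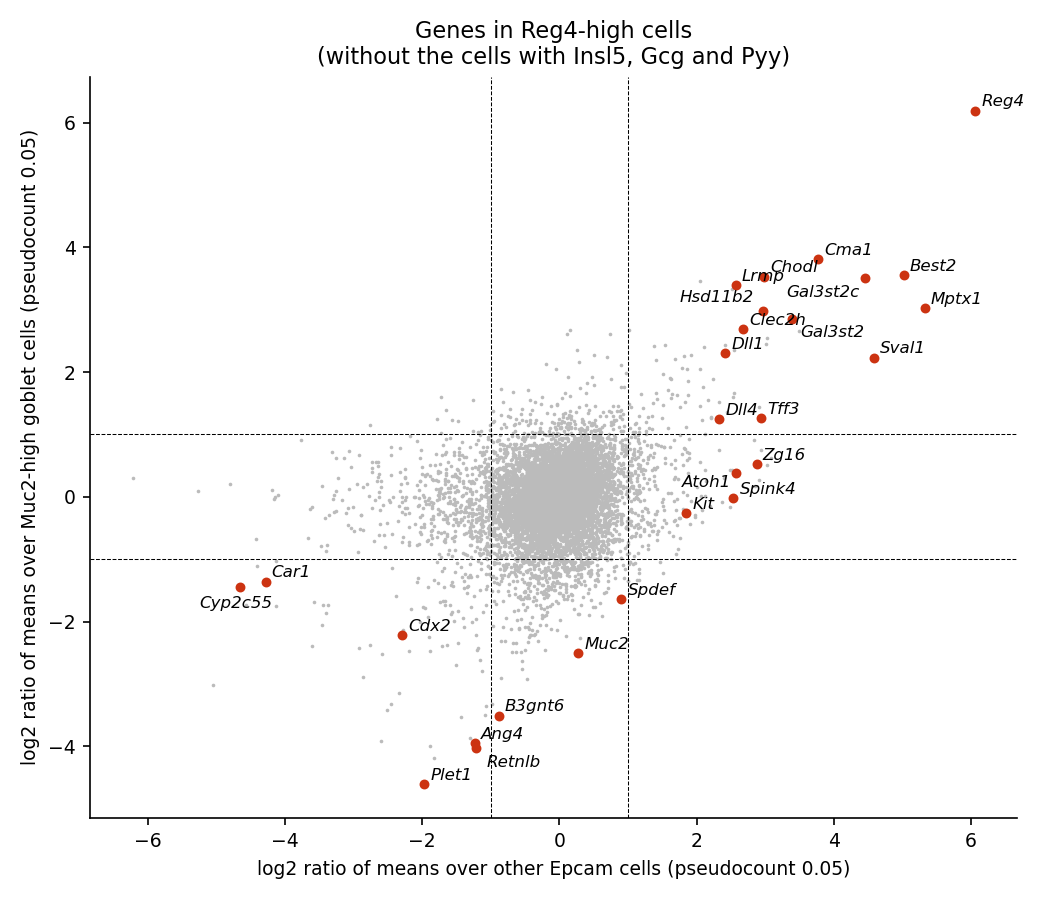
Each point is 1 gene with its log2 ratio of means in 305 Reg4-high cells over other Epcam cells (x axis) and over Muc2-high goblet cells (y axis), with 0.05 added to each mean; dashed lines mark 2-fold and red points are named. Mptx1, Best2, Cma1 and Gal3st2c lie high on both axes, Kit, Atoh1 and Spink4 are high only over other Epcam cells, and Plet1, Retnlb and Ang4 lie far below goblet cells.

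Goblet genes divided into a shared and a separate part. Against other Epcam cells, 9 of 17 genes of mucus proteins and goblet secretions were higher and 3 lower. Against goblet cells, 3 were higher and 6 lower. Tff3, the trefoil peptide, averaged 44.5 in members, 6.04 in other Epcam cells and 19.4 in goblet cells (5.44 in the 334 goblet cells with Zg16 below 10). Spink4 (152 against 161 in goblet cells) and Ccl6 (23.4 against 21.5) were near the goblet level. Agr2, the disulfide isomerase needed for mucin folding, averaged 68.0 against 180.0, and Retnlb, an antibacterial goblet product, 1.37 against 24.2. Muc2 itself, which chose the goblet cells, averaged 63.8 in members, 53.2 in other Epcam cells and 367 in goblet cells. Goblet cells held 80.9% of the Muc2 counted in Epcam cells. The log2 ratio of Muc2 over other Epcam cells was 0.26, but -0.59 without cells over 10% mitochondrial counts and 3.79 with goblet and enteroendocrine cells taken out of the other Epcam cells.

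Spdef, the transcription factor that drives goblet maturation, averaged 1.65 in members, 0.892 in other Epcam cells and 5.43 in goblet cells. Of 19 genes of mucin glycosylation, 11 were higher and 2 lower than in other Epcam cells, and 3 were higher and 7 lower than in goblet cells. The 3 were Gcnt1 (0.646 against 0.186), St3gal6 (5.65 against 2.38) and Gal3st2. B3gnt6, which builds the core 3 structure of colonic mucin, averaged 0.210 against 2.76. None of 24 genes of ER folding was higher than in goblet cells, and 5 were lower. Of 25 genes of the translocon and transport to the Golgi, 0 were higher and 6 lower. Of all genes 3.51% were higher and 5.44% lower than in goblet cells. For lists of this size 0 higher is near the share of all genes, while the 5 and 6 lower are above it. The median log2 ratio was -0.54 for ER folding and -0.80 for the translocon and transport genes, against -0.0003 for all genes. The lowest genes relative to goblet cells were Plet1 (0.542 against 12.9), Retnlb and Ang4 (0.404 against 7.19), an antimicrobial ribonuclease.

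Paneth cell genes were mixed. Apart from Mptx1, the antimicrobial lectins Reg3b and Reg3g averaged 0.0784 and 0.0502 in members against 2.26 and 0.669 in other Epcam cells. Mmp7, a protease of Paneth cells, was at 0 in all members. Lyz1 was counted 27 times in members, of 36 counts in all Epcam cells. Of 10 Paneth genes compared with other Epcam cells 3 were higher and 3 lower, and of 11 compared with goblet cells 1 was higher and 7 were lower. Egf, a growth factor of the stem cell niche, averaged 0.238 in members, 0.0655 in other Epcam cells and 0.361 in goblet cells.

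Genes of absorptive colonocytes were low beside other Epcam cells: of 19 compared, 18 were lower and 0 higher. Of 13 compared with goblet cells, 3 were lower and 1 higher, so most of the low level was shared with goblet cells. Car1, a carbonic anhydrase, averaged 1.29 in members, 26.7 in other Epcam cells and 3.48 in goblet cells, and Cyp2c55 averaged 0.107, 3.67 and 0.356. Of 13 stem cell genes 6 were lower than in other Epcam cells and 0 higher, while over goblet cells 3 of 12 were lower and 1 higher. The summed level of the list was 9.05 in members, 8.83 in other Epcam cells and 8.54 in goblet cells. Slc12a2, which is on this list and is given below with ion transport, made up most of the sum in members. It was higher in members than in both other classes, so the sums do not give the level of the other stem cell genes. Lgr5 averaged 0.0408 in members and 2.89 in the Lgr5-positive cells, which it chose. Cd44, an adhesion receptor and Wnt target, averaged 0.0502 in members, 0.576 in other Epcam cells and 0.433 in goblet cells. Cdx2, an intestinal transcription factor, averaged 0.263, 1.40 and 1.32. Among 14 enteroendocrine genes compared with other Epcam cells 8 were higher with the 14 hormone-positive cells, and 0 of 11 were higher without them.

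Genes of ion and fluid transport, a list made after the values were seen, included 13 members. Best2 was higher and 7 were lower than in other Epcam cells. Of 10 compared with goblet cells, 2 were higher and 2 lower. Cftr, the chloride channel, averaged 0.138 in Reg4-high cells and 0.840 in other Epcam cells. Slc12a2, the basolateral chloride importer, averaged 5.77 against 3.16 and 3.51.

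Within the Epcam cells with Chgb below 20, leaving out hormone-positive cells, other genes varied with Reg4 both below and above the threshold. Best2 averaged 0.0684 in 2413 cells without Reg4, 2.34 at Reg4 of 5 to 9, 5.39 at 10 to 19 and 8.12 at 80 or more. Dll1 averaged 0.101, 0.660, 0.597 and 1.00 in these cells. On the 2 sides of the threshold Dll1 differed little, while Best2 was higher inside it. Kit was 1.49 just outside and 1.03 just inside.

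Genes of goblet secretions did not share one direction within the members. Zg16, a lectin of the mucus layer, averaged 127 at Reg4 of 10 to 19 and 27.2 at 80 or more, and Clca1, a mucus-processing protease, averaged 27.8 and 2.73. Cma1 averaged 0.226 and 1.76 in the same cells, and Ccl6 19.9 at Reg4 of 20 to 39 and 34.7 at 80 or more. Spink4 averaged 118 at 10 to 19 and 227 at 80 or more, and Muc2 79.3, 61.0, 53.5 and 74.0 over the 4 bins. Over the 305 members Spearman's rho with Reg4 was -0.06 for Zg16, -0.21 for Clca1, 0.08 for Muc2 and 0.44 for Spink4. The bin at 80 or more held 51 cells and left out 8 hormone-positive ones.

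**Figure D5:**
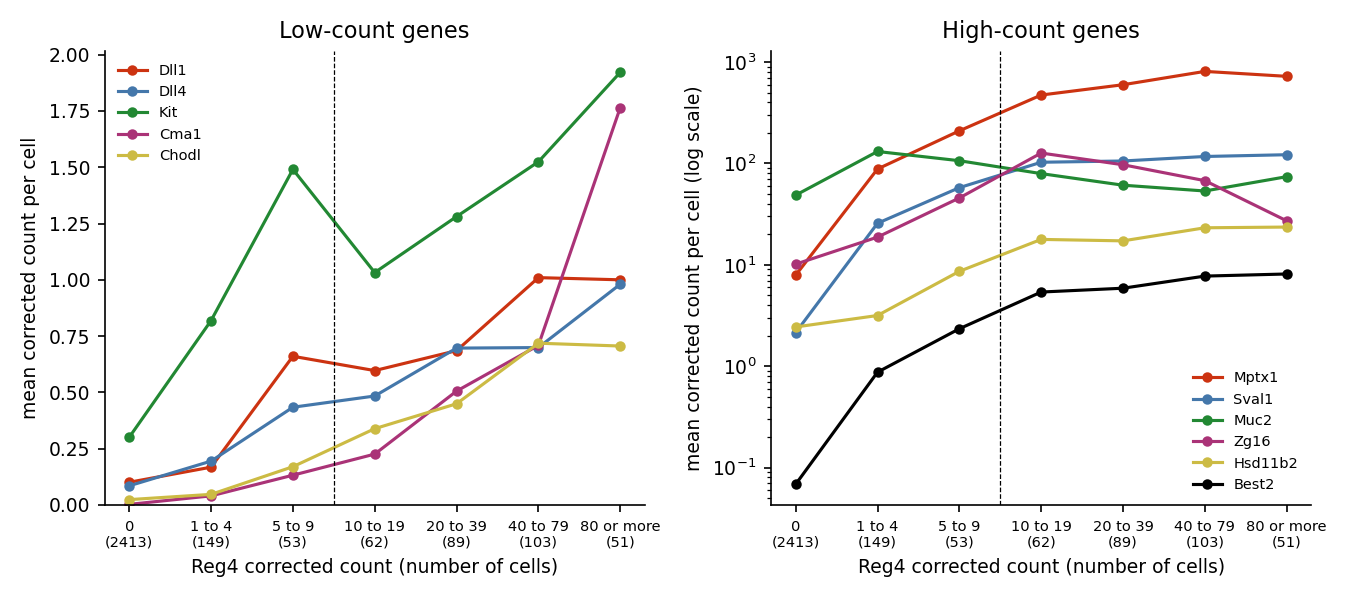
Mean corrected count per cell (y axis, linear at left and log scale at right) in Epcam cells with Chgb below 20, binned by Reg4 value. The x axis gives the bins with the number of cells in brackets. Hormone-positive cells are left out, and the dashed line marks the threshold of 10. Best2 climbs from 0.0684 without Reg4 to 8.12 at 80 or more, and Zg16 is highest at 10 to 19.

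The 305 members without the hormone genes were not uniform. Zg16 was at least 10 in 99 of them (32.5%, 27.2 to 38.0), in 7.22% of goblet cells and in 2.45% of other Epcam cells. Those 99 averaged 29.9 in Hsd11b2, 9.54 in Best2 and 84.5 in Tff3, against 15.8, 5.46 and 28.3 in the other 206, while Dll1 was 0.838 and 0.825. The same split in goblet cells gave 16.5, 3 and 198 in the 26 with Zg16 of at least 10, against 1.45, 0.338 and 5.44 in the other 334. Ribosomal protein genes took 13.6% of the counts in the 99 and 17.3% in the 206, and the part of this in the difference was not tested. Muc2 reached 100 in 51 of the 305, and these averaged 0.412 in Dll1 against 0.913 in the other 254, and 3.14 in Spdef against 1.43. At least 5 dividing cell genes were above 0 in 39 of the 305 (12.8%, 9.25 to 17.1), in 8.06% of goblet cells and in 29.2% of other Epcam cells. The 39 averaged 401 in Mptx1 and 26.1 in Zg16, against 703 and 89.5 in the other 266.

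Across the 305 cells, which share 1 library and its depth correction, Spearman's rho was 0.71 between Best2 and Hsd11b2 and 0.67 between Clca1 and Fcgbp. It was 0.34 between Dll1 and Dll4 and 0.20 between Reg4 and Dll1. Zg16 had a rho of -0.51 with the percentage of ribosomal protein counts. These are descriptions over cells, which are not replicates.

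Signs of other cell types and of cell quality differed between the classes. The summed level of 10 fibroblast genes averaged 5.27 in Reg4-high cells, 10.2 in other Epcam cells, 6.09 in goblet cells and 266 in the Col1a1-high cells. For 8 endothelial genes the sum was 0.687 in members, 0.703 in other Epcam cells and 0.131 in goblet cells. Of these, 2 of 2 compared with goblet cells were higher in members. For 12 immune genes the sums were 0.185, 0.257 and 0.0806, and 1 of 1 compared with goblet cells was higher. The median mitochondrial percentage was 6.52 in members, 10.1 in other Epcam cells and 6.56 in goblet cells. Erythroid genes were lower, with Hbb-bs at 0.0909 in members, 4.65 in other Epcam cells and 1.10 in goblet cells. The 10 immediate early genes, a list made after the values were seen, summed to 78.5, 64.7 and 68.0. The part of these in the gene differences was not tested, except that leaving out cells with stromal counts or with high mitochondrial percentages is given with the alternatives.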

How the data were processed

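Per the methods of the study, the authors sorted and pooled colon cells of 3 mice per library and loaded 16000 cells. Reads were aligned with Cell Ranger to mm10, filtered in Seurat 3.1 under R 3.6.2 and adjusted with SCTransform. The paper describes an upper limit on mitochondrial content that, on the deposited values, 101 of the 7495 cells do not meet. Among them were 58 other Epcam cells and 1 member, and they were kept. The score values deposited by the authors are whole-number corrected counts, and the natural log values deposited by the authors are ln(1 + corrected count), which was checked for all 17809 genes (largest difference 5e-15). Totals per cell span 6120 to 16389 (median 8972), so the sequenced depth is unknown and no count model was used to call genes. The exact intervals of the marker ratios do treat summed corrected counts as counted molecules. They leave out variation between cells and the effect of the depth correction.

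Means of corrected counts were compared with a pseudocount of 0.05 for the 2-fold rule and none for the marker ratios. Exact (Clopper-Pearson) intervals are at 95%. Named genes were those of the lists, the 20 highest and 10 lowest ratios in each comparison and the 15 highest in both (mean of at least 0.5, above 0 in 20% of the cells of the higher class). Members and lists were chosen with earlier results of these data known.

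Cells were kept as deposited and doublets were not removed. Scrublet (scanpy 1.11.5) was run 4 times. At its default expected rate of 0.05 it marked 7 and 5 of 7495 cells (0.0934% for the first), too few for the caller to have worked. The rate was then raised to 0.1, after that result was seen, and 211 (2.82%) and 141 cells were marked with 2 random seeds, among them 14 and 12 members. The calls served only as alternatives. Thinning drew 6000 counts per cell. Scripts used Python 3.11.15, numpy 2.4.6, scipy 1.17.1 and matplotlib 3.10.9, and were tested on simulated data. Coordinates come from GENCODE and promoters from RefSeq, both on GRCm38.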

Additional observations from a re-analysis of the deposited data

Results flagged for a closer look

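Reg4 was above 0 in 17 of the 4409 cells of the reporter library (0.386%, exact interval 0.225 to 0.617), which entered no comparison. This was looked at because the signal appears in data outside the main measurement. The highest value was 84, and 3 cells had Reg4 of at least 10, of which 2 had Epcam of at least 5. In all, 28 reporter cells had Epcam of at least 5. Chgb is not listed in that table, so the whole rule could not be applied there.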

How the results depend on the processing

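Across 17 alternatives 166 of 204 recomputed values stayed within their counting interval, or within 1.5 times for gene counts, and 38 moved. None of the ratios of at least 2-fold changed direction. The number of members was 372 with Reg4 of at least 5, 257 with Reg4 of at least 20, 268 without cells above 10% mitochondrial counts and 279 without cells with stromal counts. With a pseudocount of 0.5 the genes higher and lower were 89 and 129 over other Epcam cells and 50 and 97 over goblet cells. With a mean of at least 1 they were 126 and 150, and 66 and 190. Without cells above 10% mitochondrial counts the log2 ratios over other Epcam cells were 2.38 for Dll4, 1.26 for Kit, 1.92 for Atoh1 and -0.59 for Muc2, and over goblet cells 0.18 for Atoh1 and -2.75 for Muc2. With Reg4 of at least 5, Atoh1 was 2.82 and Muc2 0.42 over other Epcam cells, and Muc2 -2.42 over goblet cells. Thinned cells gave 1.75 for Dll4 over goblet cells. The other log2 ratios that moved were of Muc2. Over other Epcam cells they were 0.16 with Reg4 of at least 20, 0.22 with Epcam of at least 10, 0.29 with Chgb below 5 and 0.20 on pooled values. Over goblet cells they were -2.59, -2.56 and -2.50 in the first 3 of these, -2.56 without stromal counts and -2.82 with Muc2 of at least 200. Without Scrublet doublets at a rate of 0.1 they were -2.50 with either seed, while the default rate moved 0 values. With goblet and enteroendocrine cells taken out of the other Epcam cells, a choice made after seeing the data, 598 genes were higher, and the log2 ratios were 3.22 for Dll4, 3.30 for Kit, 4.02 for Atoh1 and 3.79 for Muc2. Leaving out the 14 hormone-positive cells, also chosen after seeing the data, moved 0 of 15 values. The cause was not tested for any of these. No paired analysis was possible because each library is 1 sample and no test was made.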
